A study of Mus musculus with 12 samples.

Results

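Hilpda and 9 other genes of the lipid droplet (Plin2, Plin3, Pnpla2, Abhd5, Dgat1, Dgat2, Lipe, Mgll and G0s2) were followed in regulatory T cells (Treg) of mice with a venous thrombus. The 10 genes were taken by name from the deposited gene tables, out of 20855 genes that could be joined over all libraries. All 10 were among the 11703 genes that passed the filter on low counts and were tested. The group was chosen by the exon read counts of Hilpda, which earlier results from these files had shown to be higher outside the spleen, so its values against spleen are given as a description, with no test. Mgll and G0s2 had so few reads that they passed the filter through the samples in which they were highest.

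Bulk RNA sequencing had been done on live CD45+CD4+ T cells that carried EGFP under Foxp3 control and the activation marker CD69. The cells were sorted from thrombi, from vein walls and from spleens of DEREG mice, which are C57BL/6 mice with the transgene Tg(Foxp3-DTR/EGFP)23.2Spar/Mmjax. The transgene of this strain places a diphtheria toxin receptor and EGFP under the control of Foxp3, so the sort follows the reporter. All 3 groups came from mice at day 14 after ligation of the inferior vena cava, a flow reduction model of deep vein thrombosis, and the spleen group therefore also came from thrombotic mice. There were 4 libraries for each tissue. The labels do not say whether a library holds cells of 1 mouse or of several. The p-values therefore refer to the spread among the samples at hand, part of which may be technical.

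Lipid droplets store triacylglycerol and cholesteryl ester inside cells, under a coat of perilipins. Diacylglycerol acyltransferases make the triacylglycerol, and a chain of lipases led by adipose triglyceride lipase (ATGL, encoded by Pnpla2) breaks it down to fatty acids. HILPDA, the hypoxia-inducible lipid droplet-associated protein, is a small protein known in mouse and human cells as a target of hypoxia-inducible factors (HIF) and as an inhibitor of ATGL, a role it shares with G0S2.

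The genes lie on 7 chromosomes in GRCm38, and Hilpda itself covers chromosome 6 from 29272488 to 29275446 on the plus strand in 2 of the 3 gene annotations that the files use. Promoter stretches from RefSeq (GRCm38.p6, 250 bases before to 50 after each annotated start) were found for 8 of the 10 genes, with 11 starts. They were searched on both strands for ACGTG and GCGTG, the core letters of the hypoxia response element that HIF binds. Either motif stood in 8 of the 11 stretches, from 6 genes, while 43.8% of all 32851 promoters hold one of them. ACGTG stood in 5 stretches, from Hilpda, Plin2, Lipe and Mgll, against 19.6% of all promoters, and GCGTG stands in 32.4% of all promoters. In Plin2, in Lipe and at the upstream start of Mgll the ACGTG matches on both strands overlap and spell CACGTG, which are also the letters of an E-box. The windows below show the matches at Hilpda and, for comparison, the ACGTG matches of the other genes, each 25 bases from 5′ to 3′ on the strand of the gene with the motif in capitals. Positions count the start as 1 and the base before it as -1. A match is a description of letters and not of a bound site.
Hilpda, chr6:29272573-29272597, plus strand, ACGTG at position -43 from the downstream start: tggccagcggACGTGccccagggcg
Hilpda, chr6:29272608-29272632, plus strand, GCGTG at position -8 from the downstream start: ggttcggtacGCGTGcgcagtctcc
Hilpda, chr6:29272505-29272529, plus strand, GCGTG at position 28 from the upstream start: accgcgagccGCGTGctttccgtga
Plin2, chr4:86670048-86670072, minus strand, ACGTG at position -3: ctgggctatcACGTGgctcggaggc
Lipe, chr7:25396127-25396151, minus strand, ACGTG at position -154: agggacgaccACGTGagggggcgga
Mgll, chr6:88724359-88724383, plus strand, ACGTG at position -43 from the upstream start: ggccgggcacACGTGgggccccggc
Mgll, chr6:88724536-88724560, plus strand, ACGTG at position -158 from the downstream start: tgctcggggaACGTGacagcggcgc

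The libraries held 9719151 to 55386086 exon reads, and 10645 to 12274 genes had at least 10 reads. A count of 0 allows up to 0.0542 to 0.309 CPM (read counts scaled to the library size; 3 reads of the library), for counting error only. Spleen 3 and spleen 4 differed by little more than counting noise, as did vein wall 3 and vein wall 4. Each pair was summed and counted as 1 sample (spleen 3-4, vein wall 3-4), which leaves 4 thrombus, 3 vein wall and 3 spleen samples. The files fall into 3 sets with different layouts and gene models. Set 1 holds thrombus 1 and spleen 1, set 2 holds thrombus 2, vein wall 1 and spleen 2, and set 3 holds the other 7 libraries, so differences between tissues are also given within sets. Foxp3 was present in every sample, at 275 to 706 CPM in thrombus, 354 to 484 CPM in vein wall and 400 to 674 CPM in spleen, and the summed level of 6 Treg markers overlapped between the tissues (3022 to 4344, 3265 to 4155 and 2745 to 4107 CPM in the same order). Both comparisons with spleen use the same 3 spleen samples and are not independent.

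Hilpda had 271, 373, 186 and 236 CPM in thrombus 1 to 4 and 305, 321 and 222 CPM in vein wall 1, 2 and 3-4, against 42.3, 54.7 and 38.8 CPM in spleen 1, 2 and 3-4. Every thrombus and every vein wall sample lay above every spleen sample, and the lowest of them, thrombus 3, was more than 3 times as high as the highest spleen sample. The means were 266 ± 79.1 CPM in thrombus (SD, n = 4), 283 ± 53 CPM in vein wall (n = 3) and 45.2 ± 8.35 CPM in spleen (n = 3). The log2 fold change against spleen was 2.56 ± 0.36 (SE, edgeR) in thrombus and 2.64 ± 0.37 in vein wall, which is 5.89 and 6.25 times the spleen level. These values are what placed Hilpda in the group and carry no test.

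The difference in Hilpda was of like size inside each set of files. Thrombus minus spleen was 2.68 in set 1, 2.77 in set 2 and 2.43 in set 3 on the log2 scale, and vein wall minus spleen was 2.48 in set 2 and 2.78 in set 3. Without thrombus 2, the sample with the most Hilpda, the log2 fold change of thrombus against spleen was 2.35. All of its exon reads were unique matches in all 10 samples, and intron reads were at most 1.07% of its reads. In these bulk samples, fewer cells that express a gene and less RNA of it per cell cannot be told apart.

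Hilpda did not differ between thrombus and vein wall beyond the spread of the samples. Thrombus against vein wall had a log2 fold change of -0.09 ± 0.33 (edgeR, adjusted p = 1.000), with a 95% interval of -0.77 to 0.60, and its sign turned under 5 of 29 alternative settings.

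**Figure D1:**
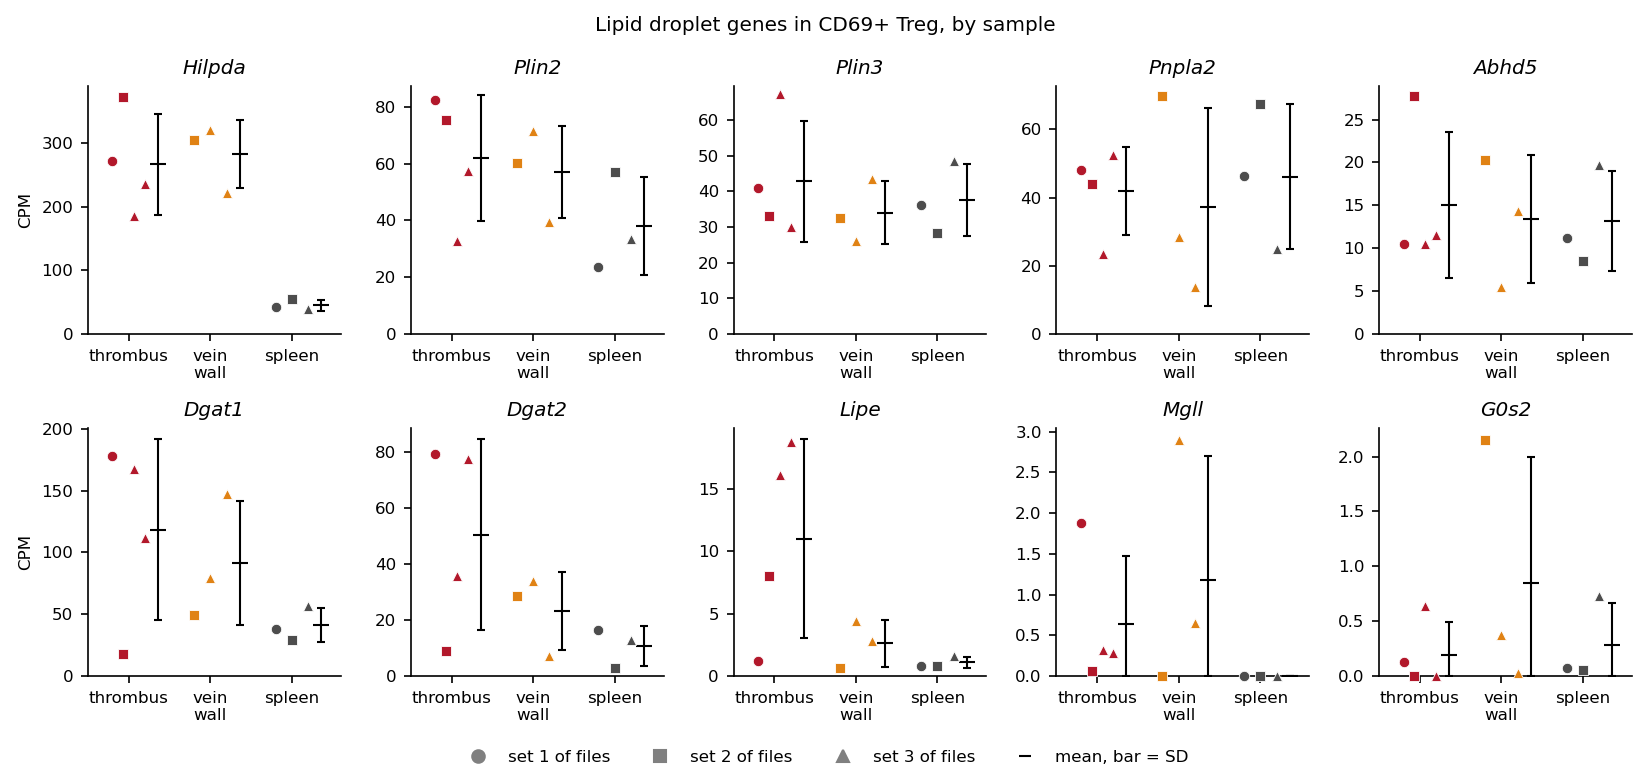
CPM of each of the 10 genes in the 4 thrombus, 3 vein wall and 3 spleen samples, each panel on its own axis from 0. Points are samples, their shape gives the set of files, and black marks give mean and SD (drawn no lower than 0); the Hilpda groups outside the spleen stand clear of spleen, while the groups of most other genes overlap.

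Per exon length, Hilpda was the most abundant of the 10 genes in every sample. Its RPKM, which scales reads to exon length and library size, was 223, 234, 123 and 162 in thrombus 1 to 4, and 197, 217 and 146 in vein wall 1, 2 and 3-4, against 33.5, 36.6 and 28.4 in spleen 1, 2 and 3-4. In thrombus it ranked between 219 and 621 among 20855 genes by RPKM, in vein wall between 446 and 582, and in spleen between 1551 and 2284. It made up 50.5% to 80.1% of the summed RPKM of the 10 genes in thrombus and 60.9% to 72.3% in vein wall, against 27.9% to 39.2% in spleen. RPKM depends on the exon length of each gene model, which for Dgat1 was 3054 bases in set 1, 2713 in set 2 and 1888 in set 3, so shares between sets carry that difference.

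**Figure D2:**
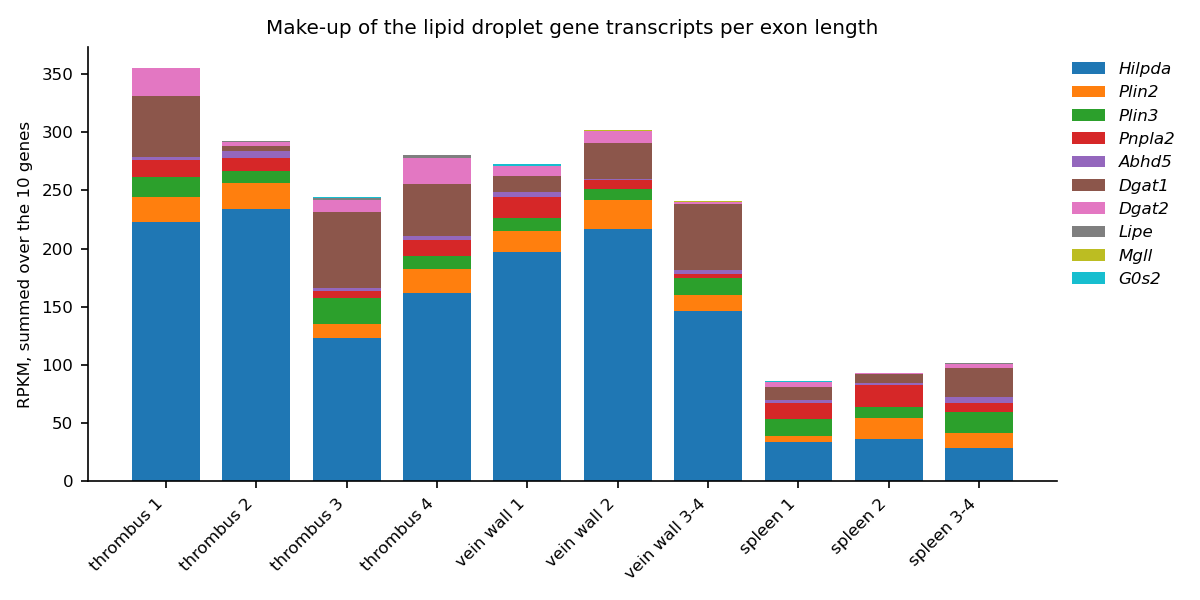
RPKM of the 10 genes, stacked, in each thrombus, vein wall and spleen sample. The blue Hilpda segment is 123 to 234 RPKM in thrombus and 146 to 217 RPKM in vein wall, against 28.4 to 36.6 RPKM in spleen, and Dgat1 is the next tallest segment in 6 of the 10 samples.

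Of markers of other cells, 11 lists were summed in each sample, and 1 list lay above spleen in every thrombus and every vein wall sample as Hilpda did. This was the fibroblast list (Dcn, Lum, Col1a1, Col1a2, Col3a1, Pdgfra), with a sum of 4.34 to 18.7 CPM in thrombus and 10.3 to 59.8 CPM in vein wall, against 0 to 0.453 CPM in spleen, where Col1a2, Col3a1 and Pdgfra had no read. The 7 macrophage and monocyte markers summed to 45.1 to 1552 CPM in thrombus, with the highest value in thrombus 2, and to 20.3 to 260 CPM in vein wall, against 26.6 to 143 CPM in spleen, where Itgam was at 0. Thrombus 2 also had the most Hilpda of all 10 samples, at 373 CPM, and vein wall 3-4, with the lowest macrophage sum, had the least Hilpda of the vein wall samples, at 222 CPM. Other samples ran otherwise. Thrombus 1, with the lowest macrophage sum in thrombus, had more Hilpda (271 CPM) than thrombus 3 and thrombus 4. Vein wall 1, with the highest sum in vein wall, had less (305 CPM) than vein wall 2 (321 CPM). Spleen 3-4, with the highest sum in spleen, had the least Hilpda of all samples, at 38.8 CPM. The 6 dendritic cell markers summed to 3.15 to 92.6 CPM in thrombus, 2.99 to 17.5 CPM in vein wall and 0.322 to 5.40 CPM in spleen. The 4 B and plasma cell markers used here (Cd79a, Cd79b, Ms4a1, Jchain) summed to 319, 892, 442 and 174 CPM in thrombus 1 to 4 and to 346 to 1193 CPM in vein wall, against 157 to 263 CPM in spleen. All vein wall samples and 3 of the 4 thrombus samples were above spleen in this sum. The part of the fibroblast, macrophage, dendritic cell and B cell signal in the levels of Hilpda and the other genes was not tested.

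None of the other 9 genes passed an adjusted p of 0.05 in any of the 3 comparisons. Over all tested genes, 17 passed in thrombus against spleen (0.145%) and 13 in vein wall against spleen (0.111%), all of them higher outside the spleen. In thrombus against vein wall edgeR called 0 genes (0%), DESeq2 called 10, and 341 (2.91%) had an unadjusted p under 0.05 in edgeR. With the number that the labels give under the tag "exp" as a replicate block, 32 genes passed in thrombus against spleen, again with none of the 9. DESeq2 and limma also called none of the 9. Mgll and G0s2 are left out of the following counts, since they passed the filter through the samples in which they were high. At an unadjusted p under 0.05, 3 of the remaining 7 differed in thrombus against spleen (Dgat1, Dgat2 and Lipe), where 4.14% of all genes did, and 0 of the 7 in vein wall against spleen, where 5.47% did. The samples of these 3 genes overlapped between thrombus and spleen, and 0 of the 7 lay above spleen without overlap in either tissue, where 2.49% of all tested genes did in thrombus and 6.76% in vein wall. Most Lipe reads outside set 1 had more than 1 match, as given below. The median log2 fold change of the 7 was 0.71 in thrombus against spleen and 0.59 in vein wall against spleen, beside medians of 0.03 and -0.01 over all tested genes. In thrombus against vein wall the median was 0.33, beside 0.04. In simulated data of this design, the test recovered 33% of 100 genes changed by 2 on the log2 scale and 63% of 100 genes changed by 4. The changed genes were drawn at random from all tested genes, so these shares are not those of the 10 genes. More genes were called there (33 and 63 of the changed ones) than the 17 in the data, which makes the adjusted p easier to pass. Differences smaller than that of Hilpda, as large, or larger can therefore go uncalled here.

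**Figure D3:**
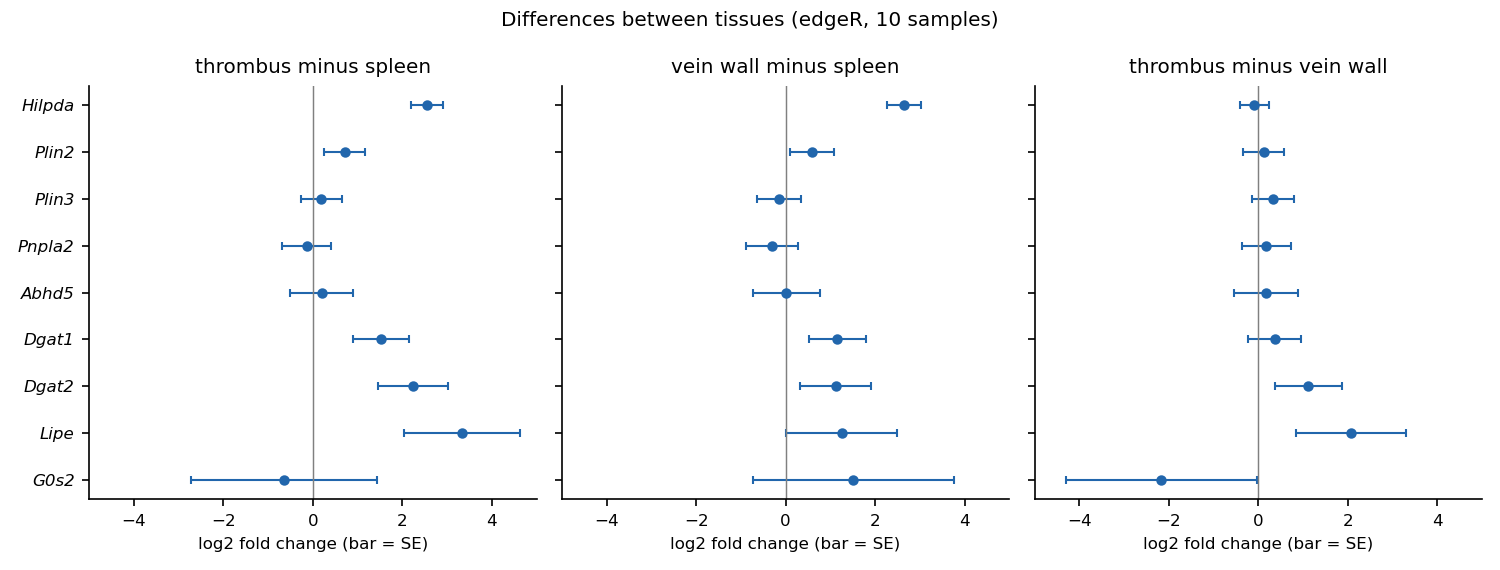
Log2 fold change of each gene in thrombus against spleen, vein wall against spleen and thrombus against vein wall, with bars for the SE. Hilpda sits at 2.56 and 2.64 against spleen with short bars, Lipe and G0s2 have the widest bars, and Mgll is left out because it had no exon read in spleen.

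Plin2, which encodes the perilipin that covers droplets in most cell types and is known as a marker of droplet load, had 82.6, 75.4, 32.9 and 57.3 CPM in thrombus 1 to 4 and 60.2, 71.6 and 39.6 CPM in vein wall 1, 2 and 3-4, against 23.5, 57.1 and 33.3 CPM in spleen 1, 2 and 3-4. Spleen 2 was level with thrombus 4 and thrombus 3 was below 2 of the 3 spleen samples, so the groups overlapped. Against spleen the log2 fold change was 0.71 ± 0.46 in thrombus (edgeR, adjusted p = 1.00) and was 0.59 ± 0.49 in vein wall (adjusted p = 0.962). Within sets, thrombus minus spleen was 1.81 in set 1, 0.40 in set 2 and 0.38 in set 3. In the plots by sample Plin2 is the member whose pattern lies nearest to that of Hilpda, as set out below. Plin3, a perilipin that moves between cytosol and new droplets, had overlapping ranges in the 3 tissues, at 30.1 to 67.5 CPM in thrombus and 26 to 43.5 CPM in vein wall, against 28.3 to 48.5 CPM in spleen. Its log2 fold change against spleen was 0.19 ± 0.46 in thrombus and -0.15 ± 0.49 in vein wall (edgeR, adjusted p = 1.00 and 0.992).

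Pnpla2, which encodes the lipase that HILPDA and G0S2 inhibit, had 48, 44, 23.4 and 52.6 CPM in thrombus 1 to 4 and 69.6, 28.5 and 13.7 CPM in vein wall 1, 2 and 3-4, against 46.3, 67.3 and 24.9 CPM in spleen 1, 2 and 3-4. The 3 groups overlapped widely. Its log2 fold change was -0.14 ± 0.54 in thrombus and -0.31 ± 0.58 in vein wall (edgeR, adjusted p = 1.00 and 0.980), and its sign turned in 14 of 29 alternative settings in thrombus. The interval of the thrombus difference ran from -1.28 to 1.01, and differences inside it were not detectable with these samples. The ratio of Hilpda to Pnpla2 RPKM was 11.3 to 20.8 in thrombus and 10.8 to 40.5 in vein wall, against 2.00 to 3.78 in spleen, and this again describes the value that chose Hilpda.

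Abhd5, also known as CGI-58 and the coactivator of ATGL, had 10.4, 27.8, 10.5 and 11.5 CPM in thrombus 1 to 4 and 20.3, 5.42 and 14.4 CPM in vein wall 1, 2 and 3-4, against 11.2, 8.52 and 19.7 CPM in spleen 1, 2 and 3-4. Thrombus 2 stood far above the other 3 thrombus samples, which lay within about 1 CPM of each other. Thrombus 2 also had the highest macrophage marker sum, and the part of that signal in its Abhd5 level was not tested. The log2 fold change against spleen was 0.19 ± 0.71 in thrombus and 0.02 ± 0.75 in vein wall (edgeR, adjusted p = 1.00 in both). Within sets it ran from 1.70 in set 2 to -0.84 in set 3 for thrombus, and from 1.24 in set 2 to -1.15 in set 3 for vein wall.

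G0s2, the other known inhibitor of ATGL, was close to absent. It had 8 exon reads in all over the 4 thrombus samples and 42 over the 3 vein wall samples, of which 34 were in vein wall 1, against 58 over the 3 spleen samples, of which 56 were in spleen 3-4. Only 5.36% of the reads in spleen 3-4 were unique matches. No difference passed the test (adjusted p = 1.00 in thrombus against spleen, 0.980 in vein wall against spleen and 1.00 in thrombus against vein wall, edgeR). At mean levels of 0.191 CPM in thrombus, 0.851 CPM in vein wall and 0.283 CPM in spleen, Hilpda exceeded it by far as the transcript of an ATGL inhibitor, with 186 ± 52.2, 187 ± 36.2 and 32.8 ± 4.15 RPKM of Hilpda beside 0.167 ± 0.253, 0.724 ± 0.967 and 0.255 ± 0.341 RPKM of G0s2 in the same order.

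The acyltransferases of triacylglycerol synthesis had larger fold changes in thrombus than Plin2, Plin3, Pnpla2 and Abhd5, and neither passed the test. Dgat1, an enzyme of the endoplasmic reticulum that esterifies incoming fatty acids, had 178, 17.4, 168 and 111 CPM in thrombus 1 to 4 and 49.3, 79 and 147 CPM in vein wall 1, 2 and 3-4, against 38.1, 29 and 56.3 CPM in spleen 1, 2 and 3-4. Thrombus 1, 3 and 4 were all above the highest spleen sample, and thrombus 2 was below the lowest. In thrombus the log2 fold change was 1.53 ± 0.62 (edgeR, unadjusted p = 0.0261, adjusted p = 1.00) and was 1.16 ± 0.64 in vein wall (adjusted p = 0.929). Without thrombus 2 it was 1.90 in thrombus (adjusted p = 0.144), and over all alternative settings the adjusted p ran from 0.129 to 1.00. Within sets, thrombus minus spleen was 2.22 in set 1, -0.73 in set 2 and 1.28 in set 3, and vein wall minus spleen was 0.76 in set 2 and 0.94 in set 3. Reads across an exon junction were 17.2% to 27.1% of Dgat1 exon reads in thrombus, against 33.1% to 49.7% in spleen. In vein wall they were 24.6% to 33.9%. Intron reads were 18.1% to 47.6% of Dgat1 reads in thrombus and 17.2% to 33.9% in vein wall, against 11.4% to 25.8% in spleen. The part of this in the exon counts was not tested.

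Dgat2, which makes triacylglycerol at the droplet surface from newly made fatty acids, had 79.2, 9.11, 35.8 and 77.7 CPM in thrombus 1 to 4 and 28.6, 33.8 and 7.26 CPM in vein wall 1, 2 and 3-4, against 16.5, 2.84 and 12.8 CPM in spleen 1, 2 and 3-4. As with Dgat1, thrombus 1, 3 and 4 lay above all spleen samples and thrombus 2 did not, although thrombus 2 exceeded spleen 2 of its own set. In thrombus the log2 fold change was 2.24 ± 0.79 (edgeR, unadjusted p = 0.0111, adjusted p = 0.845), the lowest adjusted p of the 9 genes in that comparison, and was 1.12 ± 0.79 in vein wall (adjusted p = 0.961). Within sets, thrombus minus spleen was 2.26 in set 1, 1.65 in set 2 and 2.04 in set 3, while a fit that took the file set as a covariate gave an adjusted p of 0.284. Vein wall minus spleen was 3.29 in set 2 and 0.29 in set 3, and with the set covariate the vein wall log2 fold change was 1.88 ± 0.76 (adjusted p = 0.549). Over all alternative settings the adjusted p in thrombus ran from 0.0900 to 1.00. Vein wall 3-4 differed from the other samples in the kind of its Dgat2 reads, since 60.0% of them were in introns, against 0% to 23.2% elsewhere, and 1 of its 291 exon reads spanned an exon junction.

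The downstream lipases were low. Lipe encodes hormone-sensitive lipase, which acts on diacylglycerol and is best known from adipocytes. It had 1.23, 7.99, 16.1 and 18.7 CPM in thrombus 1 to 4 and 0.633, 4.40 and 2.79 CPM in vein wall 1, 2 and 3-4, against 0.841, 0.804 and 1.60 CPM in spleen 1, 2 and 3-4. The log2 fold change was 3.33 ± 1.30 in thrombus (edgeR, unadjusted p = 0.0192, adjusted p = 0.983) and was 1.26 ± 1.24 in vein wall (adjusted p = 0.962). Most Lipe reads outside set 1 had more than 1 match, with 0% to 21% unique, so their assignment to Lipe is uncertain. In set 1, 66.7% of 12 exon reads in spleen 1 and 52.6% of 19 in thrombus 1 were unique. Within sets, thrombus minus spleen was 0.51 in set 1, 3.19 in set 2 and 3.37 in set 3. Vein wall minus spleen was -0.31 in set 2 and 1.09 in set 3. On unique exon reads alone the log2 fold change was 2.13 ± 2.06 in thrombus and -0.01 ± 2.26 in vein wall. With the set covariate it was 2.53 ± 1.29 in thrombus and 0.09 ± 1.37 in vein wall. The 6 other adipocyte markers (Adipoq, Plin1, Cidec, Lep, Cfd, Retn) summed to 0.0649 to 20.1 CPM in thrombus, with the highest value in thrombus 3, and to 1.29 to 2.66 CPM in vein wall, against 0 to 1.19 CPM in spleen, where Adipoq, Cidec, Cfd and Retn had no read. Their part in the level of Lipe was not tested.

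Mgll, which encodes monoacylglycerol lipase, the last enzyme of the chain, had no exon read in any spleen sample. It had 29, 1, 3 and 3 exon reads in thrombus 1 to 4 and 0, 54 and 26 in vein wall 1, 2 and 3-4, so thrombus 1 and vein wall 2 carried most of the reads. With 3 reads as the floor in each spleen sample, the mean level of Mgll was at least 4.63-fold higher in thrombus and at least 8.66-fold higher in vein wall. Without thrombus 1 the thrombus bound was 1.59-fold, and without vein wall 2 the vein wall bound was 2.37-fold. These bounds cover counting error in spleen only, and against the spread between samples neither difference passed (edgeR, adjusted p = 1.00 in thrombus and 0.787 in vein wall). Mgll passed the filter on low counts through samples outside the spleen. Bounds and test are therefore not independent of that choice and serve as a description. The single read in thrombus 2 is 0.0559 CPM, less than the 0.210 and 0.161 CPM that a count of 0 allows in spleen 1 and spleen 2, so that sample is not shown to lie above spleen. All spleen reads of Mgll, 9, 4 and 13 in spleen 1, 2 and 3-4, were in introns. Intron reads were also 94.3% of its reads in thrombus 3, 96.3% in thrombus 4 and 100% in vein wall 1. They were 54.0% in thrombus 1, 39.3% in vein wall 2, 50% in vein wall 3-4 and 0% in thrombus 2. Of the 54 exon reads in vein wall 2, 0 spanned an exon junction.

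The genes with the pattern most like that of Hilpda were sought over all 11702 other tested genes, by the mean absolute difference in log2 CPM over the 10 samples after each gene's own mean was subtracted. The nearest were Tgif1 at 0.20, Crem at 0.31, Dusp14 at 0.37, Rasgef1b at 0.37 and Gadd45b at 0.42, beside a median of 1.27 over all genes. Tgif1, a homeobox repressor gene, had 463 ± 25.3 CPM in thrombus and 551 ± 78.1 CPM in vein wall, against 91.3 ± 13 CPM in spleen. Crem, which encodes a cAMP-responsive modulator of transcription, had 469 ± 109 CPM in thrombus and 519 ± 314 CPM in vein wall, against 85.7 ± 13 CPM in spleen. Among the lipid droplet genes Plin2 came nearest, with rank 174 and a distance of 0.79. The other members were spread over the ranking, with Abhd5 at rank 2462, Dgat1 at 2951, Mgll at 3525, Pnpla2 at 4650, Plin3 at 4651, Lipe at 4878, Dgat2 at 5444 and G0s2 at 9080. Distances are a description, and all genes share the same libraries.

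**Figure D4:**
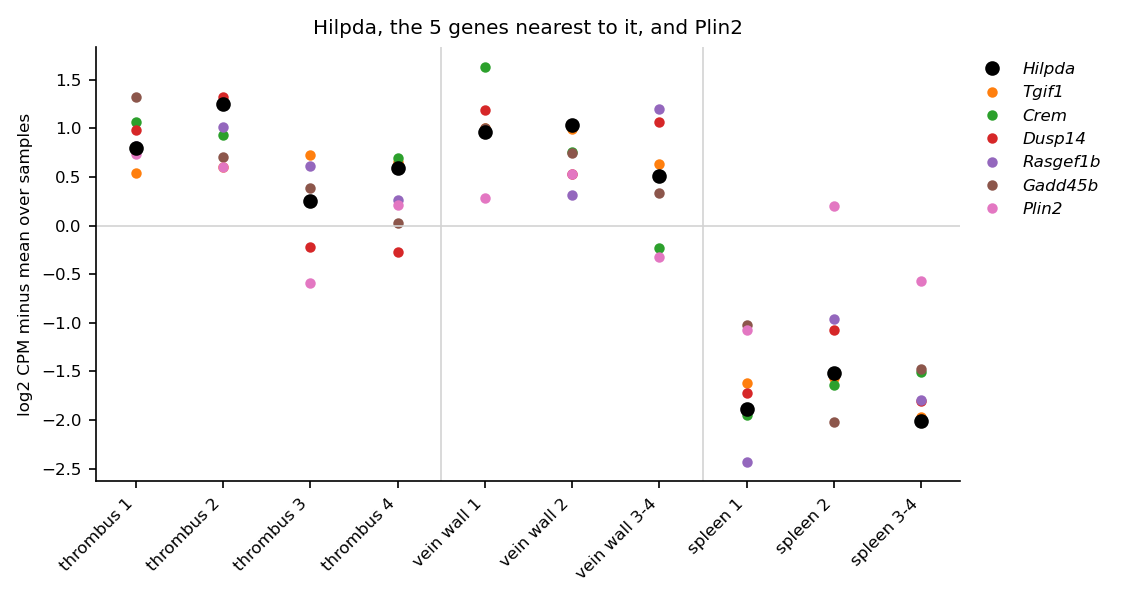
Log2 CPM minus each gene's mean over the 10 samples, for Hilpda, the 5 genes nearest to it and Plin2, in thrombus, vein wall and spleen samples. Hilpda and the 5 genes lie below -0.9 in all 3 spleen samples, while Plin2 reaches above 0 in spleen 2.

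Beyond the 10 members, 65 further genes of the pathway were listed in 6 groups, and 53 of them were tested. None was called in any of the 3 comparisons, and none when the file set was added as a covariate (edgeR, 0 of 53). With that covariate 0.453% of all genes were called in thrombus against spleen, 0.410% in vein wall against spleen and 0% in thrombus against vein wall. An unadjusted p under 0.05 was reached by 3 of the 53 in thrombus against spleen, 0 in vein wall against spleen and 1 in thrombus against vein wall, where 4.14%, 5.47% and 2.91% of all tested genes did. Some of the 53 were low, among them Lpin3 and Pnpla3, at means of 0.158 and 0.116 CPM in spleen. These passed the filter on low counts through samples outside the spleen, and they are kept in the counts and list medians. A higher level outside the spleen was thereby part of their selection. Their log2 fold changes in thrombus against spleen were 3.70 and 3.93, so counts and list medians against spleen may lean upward.

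Of 15 genes for the droplet coat and droplet assembly, 7 were tested, and the fat cell genes Plin1, Plin4, Plin5, Cidea and Cidec were among the 8 too low for a test. The median log2 fold change of the 7 was -0.27 in thrombus and -0.21 in vein wall against spleen. Rab18, a small GTPase of the droplet surface, had 115 ± 5.02 CPM in thrombus and 137 ± 18.5 CPM in vein wall, against 92.5 ± 7.77 CPM in spleen. Its samples lay above spleen without overlap in both tissues, as 2.49% of all tested genes did in thrombus and 6.76% in vein wall. The log2 fold changes of Rab18 were 0.32 ± 0.31 and 0.56 ± 0.33 (edgeR, adjusted p = 1.00 and 0.946). Fitm2, which helps to bud droplets from the endoplasmic reticulum, had 1.16 ± 0.965 CPM in thrombus and 1.73 ± 1.55 CPM in vein wall, against 3.40 ± 3.07 CPM in spleen. Hsd17b11, a droplet-associated dehydrogenase, had 11.9 ± 3 CPM in thrombus and 10.2 ± 5.77 CPM in vein wall, against 16.2 ± 9.11 CPM in spleen.

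Of 18 genes of fatty acid activation and glycerolipid synthesis, 15 were tested, with a median log2 fold change of 0.39 in thrombus and 0.03 in vein wall against spleen. Acsl3, the acyl-CoA synthetase of nascent droplets, had 11.7 ± 7.27 CPM in thrombus and 6.25 ± 6.48 CPM in vein wall, against 1.93 ± 1.61 CPM in spleen. All thrombus samples of Acsl3 lay above spleen, as 2.49% of all tested genes did, with a log2 fold change of 2.58 ± 1.15 (edgeR, unadjusted p = 0.0372, adjusted p = 1.00). Lpin1, a phosphatidate phosphatase that makes the diacylglycerol used by the DGAT enzymes, had 23.4 ± 3.93 CPM in thrombus and 7.45 ± 1.66 CPM in vein wall, with no overlap between them (2.35% of all genes were higher in thrombus without overlap), and 16.6 ± 8.29 CPM in spleen. Its log2 fold change of thrombus against vein wall was 1.65 ± 0.64 (edgeR, unadjusted p = 0.0193, adjusted p = 1.00). Lpin3, of the same enzyme family, was low, at 2 ± 2.46 CPM in thrombus and 1.20 ± 1.02 CPM in vein wall, against 0.158 ± 0.229 CPM in spleen.

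Of 6 further lipases and hydrolases, 5 were tested, with medians of -0.39 in thrombus and 0.19 in vein wall. Pnpla3, a relative of Pnpla2, had 2.02 ± 1.65 CPM in thrombus and 0.483 ± 0.837 CPM in vein wall, against 0.116 ± 0.202 CPM in spleen. Ddhd2, a triacylglycerol hydrolase known from neurons, had 18.8 ± 5.19 CPM in thrombus and 34.5 ± 6.19 CPM in vein wall, against 28.7 ± 6.20 CPM in spleen. Abhd12 had 33.7 ± 23.6 CPM in thrombus and 28 ± 21.7 CPM in vein wall, against 51.5 ± 13.5 CPM in spleen. The log2 fold change of Ddhd2 in thrombus against vein wall was -0.87 ± 0.49 (edgeR, unadjusted p = 0.0921). The adjusted p of the 3 genes was between 0.962 and 1.00 in all comparisons (edgeR).

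All 3 genes of cholesteryl ester storage were tested. Soat1, the acyltransferase that esterifies cholesterol in most cells, had 62 ± 52.1 CPM in thrombus and 32.4 ± 2.06 CPM in vein wall, against 20.5 ± 8.87 CPM in spleen. Its log2 fold change was 1.60 ± 0.63 in thrombus (edgeR, unadjusted p = 0.0196, adjusted p = 0.991) and was 0.66 ± 0.64 in vein wall (adjusted p = 0.962). Soat2 was low in all 3 tissues, at 0.603 ± 0.615 CPM in thrombus and 0.365 ± 0.263 CPM in vein wall, against 1.77 ± 1.31 CPM in spleen.

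All 9 genes of mitochondrial fatty acid oxidation were tested, and their medians of 0.13 in thrombus and 0.00 in vein wall lay close to those of all genes. Cpt1a, the carnitine palmitoyltransferase that admits fatty acids to the mitochondrion, had 33.8 ± 26.3 CPM in thrombus and 24.5 ± 16 CPM in vein wall, against 19 ± 14 CPM in spleen. The trifunctional protein subunit gene Hadha had 51.6 ± 19 CPM in thrombus and 31.8 ± 10.6 CPM in vein wall, against 55 ± 10.4 CPM in spleen, and its vein wall samples all lay below spleen, as 6.49% of all genes did, without passing the test (log2 fold change -0.79 ± 0.48, edgeR, adjusted p = 0.955). Its partner Hadhb had 246 ± 52 CPM in thrombus and 261 ± 56.1 CPM in vein wall, against 221 ± 38.1 CPM in spleen. Slc25a20, the carnitine-acylcarnitine carrier, had 65.8 ± 38.6 CPM in thrombus and 53.3 ± 15.3 CPM in vein wall, against 50.2 ± 6.53 CPM in spleen.

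All 14 listed HIF target genes were tested, and 0 were called. Of them, 10 had a log2 fold change above 0 in thrombus (median 0.33) and 11 in vein wall (median 0.48), where 52.2% and 49.0% of all genes did. The 10 include Vegfa, at means of 0.588 CPM in spleen and 3.76 CPM in thrombus, whose thrombus level may have carried it past the filter. P4ha1, a collagen prolyl hydroxylase, had 64.1 ± 30 CPM in thrombus and 61.6 ± 38 CPM in vein wall, against 31.5 ± 12 CPM in spleen (log2 fold change 1.03 ± 0.52 and 0.97 ± 0.54, edgeR, adjusted p = 1.00 and 0.929). Ndrg1, a stress-responsive gene, had 21 ± 14.5 CPM in thrombus and 5.68 ± 3.30 CPM in vein wall, against 3.50 ± 3.44 CPM in spleen, with a log2 fold change of 2.59 ± 1.05 in thrombus (edgeR, unadjusted p = 0.0236, adjusted p = 1.00). Pdk1, the kinase that turns off pyruvate dehydrogenase, ran the other way, at 29.7 ± 20.8 CPM in thrombus and 18.8 ± 5.09 CPM in vein wall, against 44.7 ± 5.79 CPM in spleen. Its vein wall samples lay below spleen without overlap, as 6.49% of all genes did (log2 fold change -1.25 ± 0.64, edgeR, adjusted p = 0.916). Another 2 of the 14 genes lay above spleen without overlap in vein wall, as 6.76% of all genes did. Hilpda, itself a HIF target, was set apart from these 14 by the choice that placed it at the head of the group, so no test between them was made.

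**Figure D5:**
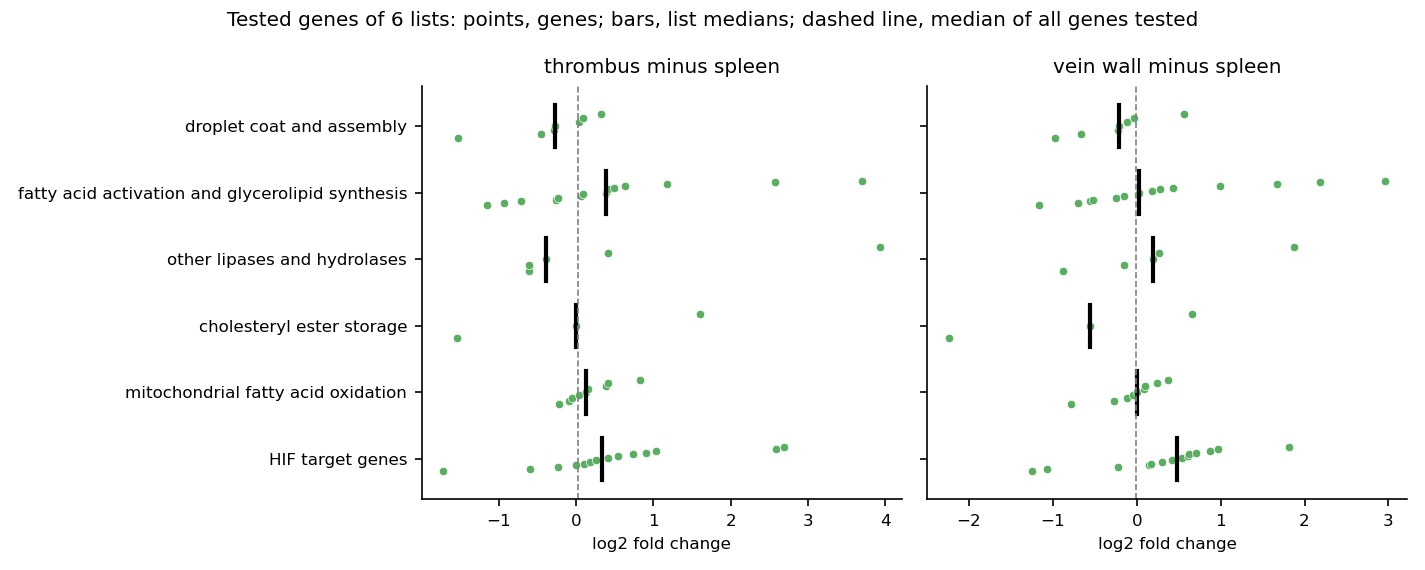
Log2 fold change in thrombus against spleen and vein wall against spleen for the 53 tested genes of 6 lists. Points are genes, black bars are list medians and the dashed line is the median of all tested genes, at 0.03 in thrombus and -0.01 in vein wall; the list medians lie between -0.56 and 0.48.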

How the data were processed

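Libraries had been made from 2 ng of total RNA by full-length cDNA amplification with 12 cycles and from 1 ng of cDNA by tagmentation, per the labels' protocols, with no molecular identifiers and no strand information. The deposited files give, per gene, counts of exon reads (all matches and unique matches), intron reads and RPKM values. The submitters' processing notes name GRCm38, and the mapping and counting tools were not given in the sources used here. RPKM values as deposited equal exon reads over exon length and a library total, to within 0.1% for 100% of genes with at least 50 reads, so no further scaling was applied to them by the authors. Exon reads with more than 1 match were 13.6% to 21.8%.

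The 3 sets of files were joined by gene symbol, with a RefSeq synonym for 120 of 20855 genes, and the join holds 92.3% to 96.3% of exon reads. Pairs of libraries of a tissue were set against each other by chi-square, averaged over genes, where counting noise alone gives 1. It was 3.95 for spleen 3 and 4 and 2.56 for vein wall 3 and 4, against 96.8 to 355 for the other 16 pairs, so both close pairs were summed. The test on exon read counts was that of edgeR 4.0.16, run in R 4.3.3 (robust quasi-likelihood F test, TMM, default filter, tissue as factor), with Benjamini-Hochberg adjustment over all tested genes. CPM uses TMM library sizes, and RPKM of summed pairs is their mean. The test was run on simulated counts first.

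The numbers under the label tag "exp" are shared between tissues, and the labels do not say what they mark. Same-numbered thrombus and spleen samples deviated together (r = 0.39, 0.28, 0.15 and 0.10, rounded, all above 0.1), and they also share a set of files. Same-numbered vein wall and spleen samples did not (r = -0.09, -0.08 and 0.05). Thrombus 1 and vein wall 1, and thrombus 2 and vein wall 2, share a number but no set (r = 0.01 and -0.11). Vein wall 1 shares set 2, but no number, with thrombus 2 and spleen 2 (r = 0.36 and 0.20). Vein wall 2 shares set 3, but no number, with spleen 3-4, thrombus 3 and thrombus 4 (r = 0.11, 0.10 and 0.04). Which of the 2 labels the deviations follow was not tested. Alternatives were RLE factors, DESeq2 1.42.0, limma 3.58.1 on log2(RPKM + 1), no filter, 12 separate libraries, unique reads, all gene reads, the set of files as covariate, a replicate block, and each sample left out. Values within sets, and the set covariate combined with leaving out samples, were added after seeing the data. The members and gene lists were chosen with earlier results of these data known. Genes named from each list are those called and the 2 with the lowest unadjusted p in each comparison with spleen. The list of B and plasma cell markers was shortened by 1 gene, which is not reported here.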

Additional observations from a re-analysis of the deposited data

Results flagged for a closer look

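The level of each of the 10 genes in the 4 thrombus samples was screened for a sample far from the rest, with Dixon's ratio of the gap to the range and its 95% critical value. Chance alone marks about 1 in 20 groups. Abhd5 in thrombus 2 had a ratio of 0.940, with 27.8 CPM against 10.4 to 11.5 CPM in the other 3 thrombus samples. Mgll in thrombus 1 had a ratio of 0.857, with 29 exon reads against 1 to 3 in the other 3 thrombus samples.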

How the results depend on the processing

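None of the 9 genes beside Hilpda was called under any alternative, and each of the 3 counts stayed at 0. The log2 fold change of Hilpda ran from 2.35 to 2.74 in thrombus and from 2.46 to 2.93 in vein wall against spleen over 29 alternatives. The counts over all genes moved. Given for thrombus against spleen and vein wall against spleen, they were 105 and 119 with DESeq2 (1 and 30 of these lower), 80 and 66 without a filter, 35 and 51 for 12 separate libraries, 53 and 48 when the file set was a covariate, 32 and 24 with the replicate block, and 9 and 8 with limma on RPKM. All gene reads gave 9 in thrombus against spleen, and unique reads gave 7 in vein wall against spleen. For thrombus against vein wall, DESeq2 gave 10 and no filter gave 2. Leaving out 1 sample gave 6 to 34 and 5 to 28 against spleen, lowest without spleen 2 (6 and 5), 8 and 6 without spleen 3-4, and highest without spleen 1, and 0 in thrombus against vein wall. The replicate block changed no call among the 10 genes. Within single sets of files, 16 single-gene differences against spleen moved from the main value by more than the spread between samples. Under the other alternatives that rule was applied only to Hilpda against spleen, which did not move so far. The other values were checked there only for calls, and some moved widely. In thrombus against spleen, the log2 fold change of Lipe ran from 0.99 to 3.73 and that of Mgll from 0.14 to 7.34. The cause was not tested. Depth limits Mgll and G0s2 most, with at most 56 reads in a sample.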

Other observations

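The following 3 ratios within the pathway, per exon length, overlapped between thrombus, vein wall and spleen. The ratio of Plin2 to Plin3 RPKM was 0.499 to 2.05 in thrombus and 0.932 to 2.81 in vein wall, against 0.398 to 1.82 in spleen. The ratio of Dgat1 to Dgat2 RPKM was 1.59 to 6.35 in thrombus and 1.43 to 27.2 in vein wall, against 2.34 to 8.47 in spleen, with the highest value in vein wall 3-4. The ratio of Abhd5 to Pnpla2 RPKM was 0.181 to 0.532 in thrombus and 0.162 to 0.888 in vein wall, against 0.107 to 0.676 in spleen.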
